A study of Mus musculus with 8 samples.

Results

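Chromatin modifiers and remodelers set how tightly DNA is packed and which genes can be read. The 47 genes described here were listed by their known roles, in Polycomb repression, DNA methylation, the SWI/SNF remodelling complex, histone methylation, histone acetylation and the BAP1 and ASXL proteins. Of these, 44 had a probe set that names no other gene, among 22180 such genes on the array. Cbx6, Smarcd3 and Kdm2b are named only in probe sets shared with other genes, and no value is given for them. The levels were measured in 8 clonal mouse cell lines, 4 from intrahepatic cholangiocarcinoma (ICC, a liver cancer that resembles bile ducts) and 4 from hepatocellular carcinoma (HCC, one that resembles hepatocytes), with 1 array per line.

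All lines were C57BL/6, and all tumours were driven by c-Myc and NrasG12V from the pCaMIN vector. ICC had been started by focal electroporation in the living animal and HCC by injection into the tail vein under hydrodynamic pressure, so that tumour type and the way the vector was delivered cannot be told apart. According to the series title the tumours of both types came from transformed hepatocytes. The ICC lines were ICC9 and ICC10, labelled female, and ICC2.7 and ICC2.9, labelled male. The HCC lines were HCC1 and HCC4, labelled male, and HCC2.1 and HCC2.4, labelled female. All were grown untreated in DMEM with fetal calf serum. Each line is 1 clone, and the labels do not say which lines share an animal, so p-values reflect no more than how these lines spread.

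Polycomb complexes methylate and ubiquitinate histones and keep developmental genes silent, while SWI/SNF complexes use ATP to move nucleosomes and open DNA. DNA methyltransferases copy or add methyl groups on cytosine and TET enzymes oxidise them. In human liver and bile duct tumours, ARID1A, PBRM1, BAP1 and KMT2C are among the chromatin genes known to be mutated, and EZH2 is known to be high in dividing cells.

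The deposited values were log2 signals made by RMA, and a difference of 1 unit is a 2-fold difference. A signal depends on the probes of its gene, so that a gene's level is compared only between lines. The median gene serves below as a mark of probe brightness, not of how much RNA of a gene was present. The median signal of an array lay between 5.02 and 5.09. The 8 columns of the table carried only 7 independent directions apart from rounding: the smallest singular value was 0.579, where rounding to 2 decimals gives 0.577, and the next was 54.5. The missing direction had its largest weights in ICC9 (0.78) and ICC10 (-0.54). The weights of the other lines lay between -0.15 (HCC2.1) and 0.18 (HCC1). Hence the 8 columns are not fully separate measurements, and which of them depends on the others cannot be told. Results are also given with that direction in the model. Of the hepatocyte markers 2 of 10 lay above the median gene (log2 signal 5.66), and of the cholangiocyte markers 4 of 8. The mean of the hepatocyte list was 4.91 to 5.13 in the ICC lines and 5.04 to 5.69 in the HCC lines, and that of the cholangiocyte list 5.66 to 6.21 and 5.50 to 6.42. Neither list separated the types, and no gene of either passed the limma test between them. Leukocyte markers had means of 4.55 to 5.18 and 4.87 to 5.34, endothelial markers 4.45 to 4.59 and 4.47 to 4.72, and stellate cell and fibroblast markers 5.31 to 6.18 and 5.24 to 5.72 in ICC and HCC lines. In these, 1 of 7, 0 of 6 and 3 of 8 genes lay above the median gene, and none passed the test between types.

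The probe sets of 42 of the 44 members were brighter on average than that of the median gene, and those of Hdac9 and Tet1 were dimmer. A member's range over the 8 lines had a median of 0.57 log2 units, against 0.57 for all genes, and ran from 0.29 to 1.54, against 0.04 to 7.57. In bulk RNA, fewer cells of a kind and less RNA per cell cannot be told apart.

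**Figure D1:**
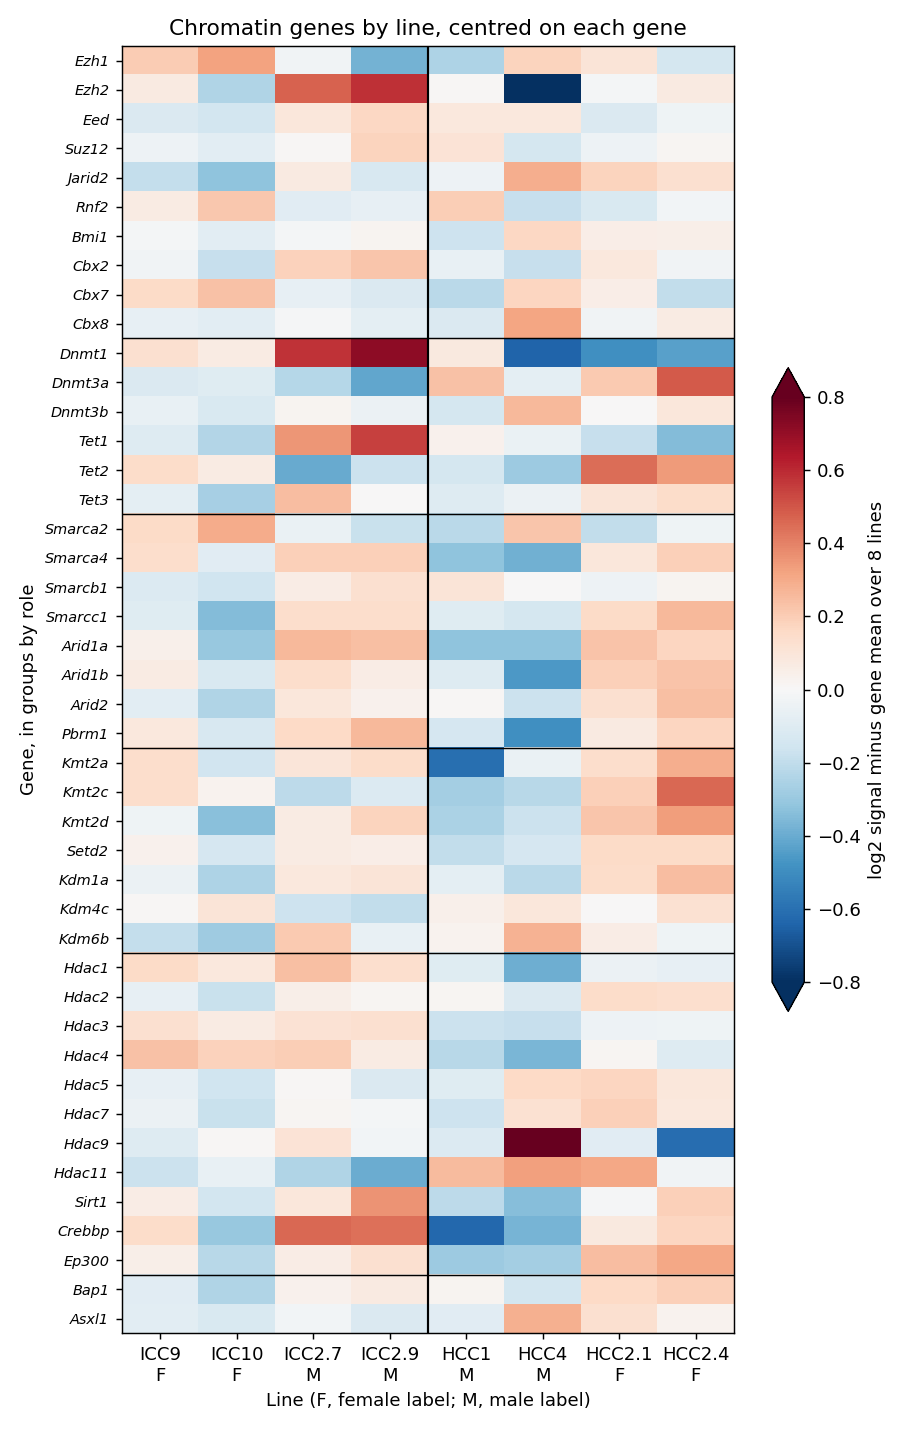
Log2 signal of the 44 measured chromatin genes (rows, in groups by role) in the 8 lines (columns, with sex label), as the distance from each gene's mean over the lines, with colours capped at 0.8 in each direction. Dnmt1 is high in the ICC lines labelled male, and many SWI/SNF, histone methylation and acetylation genes are low together in ICC10, HCC1 and HCC4.

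The first comparison asked which chromatin genes differ between ICC and HCC lines. None of the 44 passed limma's test at a Benjamini-Hochberg adjusted p of 0.05 over all 22180 genes, where 0.261% of genes passed. At an unadjusted p under 0.05 there were 7 members, or 15.9%, against 14.1% of all genes. These 7 were Dnmt1, Hdac1, Hdac3 and Hdac4, with higher means in ICC, and Dnmt3a, Hdac11 and Jarid2, with higher means in HCC. In 5 members (11.4%) the types did not overlap, against 8.63% of all genes. Both shares lay near the background. The median difference over the members was 0.00 log2 units, as over all genes, with 21 members higher and 23 lower in ICC. Only Dnmt1 differed by 0.5 or more, 2.27% of the members against 6.90% of all genes.

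The DNA methylation enzymes held the largest difference between type means. Dnmt1, the maintenance methyltransferase that copies methylation onto new DNA strands, had log2 signals of 9.63, 9.57, 10.08 and 10.22 in ICC9, ICC10, ICC2.7 and ICC2.9, and of 9.58, 8.86, 9.01 and 9.07 in HCC1, HCC4, HCC2.1 and HCC2.4. HCC1 reached the level of the lower ICC lines, so the types overlapped at that one line. The mean was 9.88 ± 0.32 (SD, n = 4) in ICC and 9.13 ± 0.31 (SD, n = 4) in HCC, a 1.68-fold difference (log2 0.75, SE 0.20, 95% interval 0.30 to 1.19). Its adjusted p in limma's test was 0.159. Among the lines labelled female alone the difference was 0.56 and passed the limma test (adjusted p = 0.0448, where 3.14% of all genes passed). The ICC side of that fit is ICC9 and ICC10 alone, the lines with the largest weights in the missing direction. Over all lines with that direction in the model the limma adjusted p was 0.311. Among the lines labelled male the difference was 0.93 and did not pass the limma test (adjusted p = 0.185, where 0.902% passed). The interaction of type and sex label for Dnmt1 had an adjusted p of 0.530 in limma, so a difference between these values was not shown. Among female-labelled lines the ICC lines are named without a point and the HCC lines with one, and among male-labelled lines the reverse holds. So type and the form of the line names cannot be told apart within either sex label.

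Dnmt3a, which places methyl groups on unmethylated DNA, lay the other way. Its log2 signals were 7.17, 7.19, 7.06 and 6.87 in ICC9, ICC10, ICC2.7 and ICC2.9, and 7.52, 7.21, 7.50 and 7.78 in HCC1, HCC4, HCC2.1 and HCC2.4. The types did not overlap, although HCC4 was only just above ICC10. The HCC mean was 1.35-fold higher (log2 ICC minus HCC -0.43, SE 0.13, adjusted p = 0.205 by limma). The other de novo enzyme, Dnmt3b, had 5.80, 5.74, 5.88 and 5.81 in the ICC lines and 5.72, 6.12, 5.86 and 5.95 in the HCC lines. Its difference was -0.11 (SE 0.10), and both its lowest line, HCC1, and its highest, HCC4, were HCC lines. Thus Dnmt1 had its higher mean in ICC and Dnmt3a in HCC, neither past the threshold, and Dnmt3b did not separate the types.

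**Figure D2:**
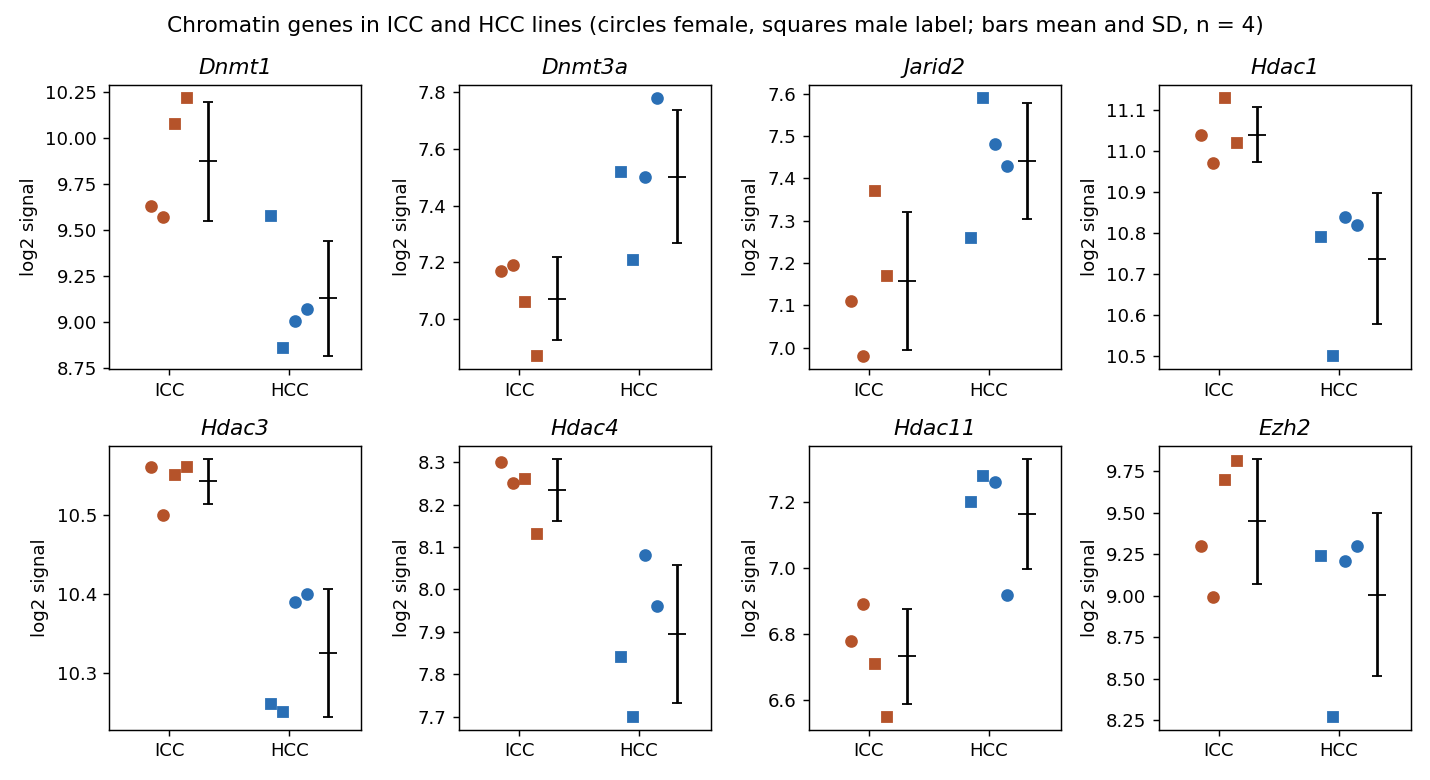
Log2 signal of 8 chromatin genes in each ICC and HCC line; circles are lines labelled female, squares lines labelled male, and bars the mean and SD of 4 lines. Hdac1, Hdac3 and Hdac4 lie wholly higher and Dnmt3a and Hdac11 wholly lower in ICC, while Dnmt1, Ezh2 and Jarid2 overlap between the types.

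Proliferation genes moved beside Dnmt1. All 19 measured genes of that list had higher means in ICC, 13 at an unadjusted p under 0.05 and 1, Ccnb2, at an adjusted p of 0.05 in limma. The median difference was 0.87. The mean of the list was 9.07, 9.03, 9.55 and 9.63 in ICC9, ICC10, ICC2.7 and ICC2.9, and 9.08, 8.07, 8.35 and 8.50 in HCC1, HCC4, HCC2.1 and HCC2.4. The line HCC1, in which Dnmt1 was highest among the HCC lines, also had their highest proliferation mean, and HCC4 had the lowest of both. The part of proliferation in the Dnmt1 difference was not tested.

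The DNA methylation companions were 10 other genes listed beside the pathway, and none passed limma's test between types. The 2 with the smallest p were Hells, a remodeller that DNA methylation depends on, and Uhrf1, which brings Dnmt1 to newly copied DNA. Hells had log2 signals of 7.97, 7.99, 8.57 and 9.02 in the ICC lines and 8.39, 7.15, 7.01 and 7.49 in the HCC lines, in the same order of lines as above (difference 0.88, SE 0.34, adjusted p = 0.295 by limma). Uhrf1 had 8.30, 8.29, 8.82 and 9.01 against 8.72, 7.12, 7.64 and 7.82 (difference 0.78, SE 0.32, adjusted p = 0.319 by limma). In both genes HCC1 lay above ICC9 and ICC10, and the other HCC lines below all ICC lines.

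**Figure D3:**
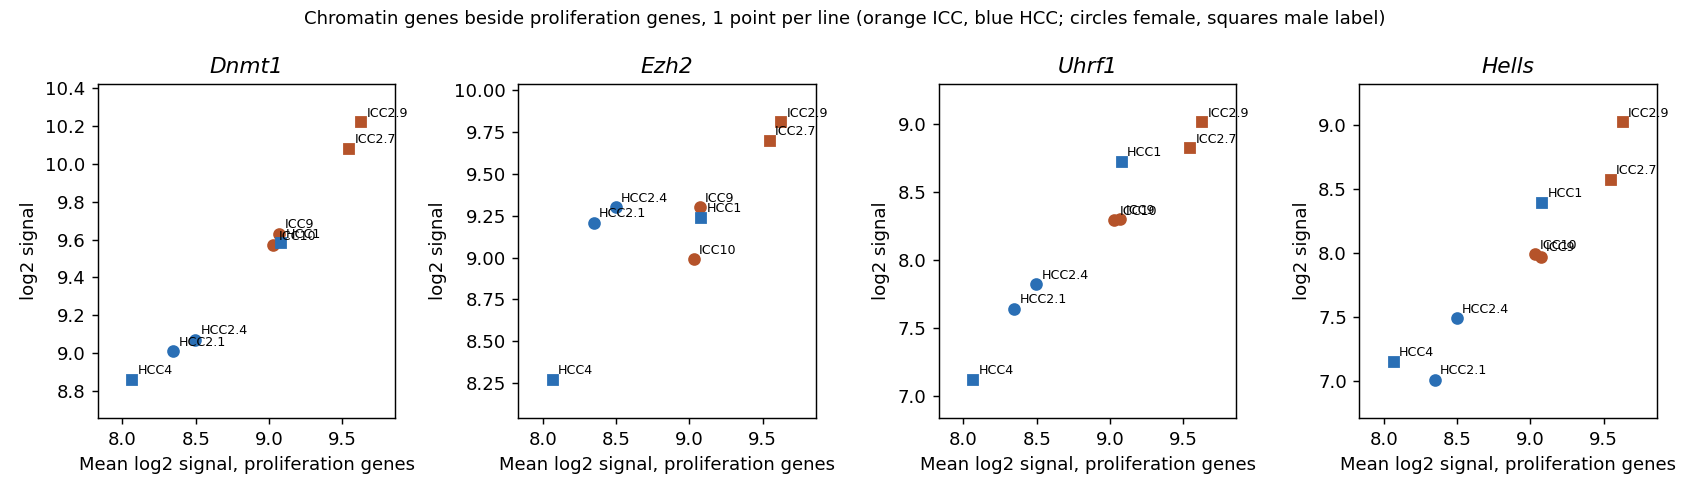
Log2 signal of Dnmt1, Ezh2, Uhrf1 and Hells (vertical axes) against the mean log2 signal of the proliferation genes (horizontal axes), with 1 labelled point per line. ICC2.7 and ICC2.9 hold the highest proliferation means (9.55 and 9.63) and HCC4 the lowest (8.07), and HCC1 lies among the ICC lines.

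Promoter windows of 300 bases, 250 before to 50 after a RefSeq start site in mouse build GRCm38.p6, were available for 39 of the 44 measured members, all but Cbx2, Arid2, Kdm6b, Hdac1 and Hdac3. They were searched on both strands for the E2F site, a sequence bound by factors that drive genes of DNA replication, spelled as TTTCCCGC, TTTCGCGC, TTTGCCGC or TTTGGCGC. A match was found in 4 of 39 members (10.3%), Dnmt1, Ezh2, Suz12 and Arid1a, against 2.60% of 27025 genes. The windows of the first 3 are shown because these genes are among the widest ranging members or, for Suz12, form a complex with Ezh2. Capitals mark the matches. The first base of each match is at -219 and 34 in Dnmt1 (chr9:20952574-20952873, minus strand), at 4 in Ezh2 (chr6:47594981-47595280, minus strand) and at -219 in Suz12 (chr11:79992856-79993155, plus strand), counted with the start site as 1 and the base before it as -1.
Dnmt1: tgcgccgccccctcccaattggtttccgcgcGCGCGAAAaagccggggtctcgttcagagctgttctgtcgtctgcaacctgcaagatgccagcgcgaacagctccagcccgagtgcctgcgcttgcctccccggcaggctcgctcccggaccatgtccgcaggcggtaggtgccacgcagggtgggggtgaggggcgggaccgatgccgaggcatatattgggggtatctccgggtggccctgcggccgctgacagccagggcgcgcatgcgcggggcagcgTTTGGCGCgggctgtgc
Ezh2: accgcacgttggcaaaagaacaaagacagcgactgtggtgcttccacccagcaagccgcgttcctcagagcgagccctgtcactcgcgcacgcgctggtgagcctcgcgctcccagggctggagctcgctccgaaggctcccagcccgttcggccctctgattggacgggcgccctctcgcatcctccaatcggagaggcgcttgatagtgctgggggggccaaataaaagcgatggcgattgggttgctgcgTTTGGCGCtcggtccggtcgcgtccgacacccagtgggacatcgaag
Suz12: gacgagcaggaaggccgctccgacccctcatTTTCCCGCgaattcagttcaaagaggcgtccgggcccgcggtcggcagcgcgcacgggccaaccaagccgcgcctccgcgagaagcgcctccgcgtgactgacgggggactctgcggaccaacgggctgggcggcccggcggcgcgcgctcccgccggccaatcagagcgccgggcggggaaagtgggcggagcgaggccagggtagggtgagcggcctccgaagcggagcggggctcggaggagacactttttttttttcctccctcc
The upstream match in Dnmt1 is the reverse strand of the motif. A match describes letters only, and binding was not measured. Which start site of a gene these lines used was not measured either, so a window need not be the main promoter. Of the same 39 members, 8 held the E-box CACGTG, which Myc can bind (20.5%, against 8.09% of all genes): Bap1, Bmi1, Cbx8, Dnmt3a, Hdac5, Kdm4c, Pbrm1 and Sirt1. Every spelling of both motifs contains CG, and the windows of Dnmt1, Ezh2 and Suz12 hold CG 33, 31 and 41 times. The other genes were not matched to the members for CG content or level, so neither excess is shown to be particular to chromatin genes.

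Among the Polycomb genes, 6 of 10 had the higher mean in ICC and 4 in HCC, none past the adjusted threshold, with a median difference of 0.04. Ezh2, the methyltransferase subunit of Polycomb repressive complex 2, had the widest range of all members (1.54). Its log2 signals were 9.30, 8.99, 9.70 and 9.81 in ICC9, ICC10, ICC2.7 and ICC2.9, and 9.24, 8.27, 9.21 and 9.30 in HCC1, HCC4, HCC2.1 and HCC2.4. The lines ICC2.7 and ICC2.9 were highest and HCC4 stood well below the rest, while the other lines of the types overlapped. The mean was 9.45 ± 0.38 (SD, n = 4) in ICC and 9.01 ± 0.49 (SD, n = 4) in HCC (difference 0.45, 95% interval -0.15 to 1.04, adjusted p = 0.487 by limma). The proliferation means of ICC2.7, ICC2.9 and HCC4 were also the 2 highest and the lowest, and their part in the Ezh2 level was not tested.

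Jarid2, which guides that complex to its targets, had 7.11, 6.98, 7.37 and 7.17 in the ICC lines and 7.26, 7.59, 7.48 and 7.43 in the HCC lines. HCC1 lay below ICC2.7, so the types overlapped, and the difference was -0.28 (SE 0.11, adjusted p = 0.301 by limma). The scaffold subunits Suz12 and Eed differed by 0.03 and -0.01. Ezh1, the other catalytic subunit, which prevails in resting cells, ranged from 8.59 in ICC2.9 to 9.29 in ICC10 and differed by 0.06 between the types. In Polycomb repressive complex 1, the ubiquitin ligase Rnf2 and its partner Bmi1 differed by 0.07 and -0.05, and the chromodomain readers Cbx2, Cbx7 and Cbx8 by 0.10, 0.10 and -0.12. Of 20 Polycomb companions none passed the test, with 10 higher in either type. The smallest p among them belonged to Phf19 (difference 0.30) and Pcgf1 (difference 0.24), subunits of the complexes, with limma adjusted p of 0.250 and 0.304.

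Of the 11 histone acetylation genes, 4 did not overlap between the types, Hdac1, Hdac3 and Hdac4 with the higher mean in ICC and Hdac11 with the lower. For all genes that share was 8.63%, and a second probe set of Hdac11 did not show its difference. Hdac1, the catalytic subunit of several corepressor complexes, had 11.04, 10.97, 11.13 and 11.02 in ICC9, ICC10, ICC2.7 and ICC2.9, and 10.79, 10.50, 10.84 and 10.82 in HCC1, HCC4, HCC2.1 and HCC2.4. Every ICC line was above every HCC line, by a mean of 0.30 log2 units (SE 0.10, 1.23-fold, adjusted p = 0.229 by limma). Hdac3, the enzyme of the NCoR corepressor, had 10.56, 10.50, 10.55 and 10.56 against 10.26, 10.25, 10.39 and 10.40, which is a small difference of 0.22 beside a narrow spread (adjusted p = 0.255 by limma). Hdac4, a class II enzyme that shuttles between nucleus and cytoplasm, had 8.30, 8.25, 8.26 and 8.13 against 7.84, 7.70, 8.08 and 7.96 (difference 0.34, SE 0.10, 1.27-fold, adjusted p = 0.191 by limma). For all 3 genes the lowest value was in HCC4.

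Hdac11, the only class IV enzyme, lay the other way, with 6.78, 6.89, 6.71 and 6.55 in the ICC lines and 7.20, 7.28, 7.26 and 6.92 in the HCC lines. The lowest HCC line, HCC2.4, was 0.03 above the highest ICC line. The HCC mean was 1.35-fold higher (log2 ICC minus HCC -0.43, SE 0.11, adjusted p = 0.153 by limma). The means of the second, dimmer probe set were 5.90 ± 0.17 (SD, n = 4) in ICC and 5.84 ± 0.13 (SD, n = 4) in HCC, so the direction for Hdac11 rests on 1 probe set.

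The other deacetylases Hdac2, Hdac5 and Hdac7 had differences of -0.09, -0.17 and -0.12. Hdac9, whose probe set was the dimmest among the members, had 4.29, 4.40, 4.50 and 4.37 in the ICC lines and 4.28, 5.21, 4.30 and 3.78 in the HCC lines, where HCC4 was high and HCC2.4 low, and its type means were equal within 0.01. Sirt1, an NAD-dependent deacetylase, had 8.34, 8.13, 8.37 and 8.64 against 8.07, 7.94, 8.27 and 8.47, with wide overlap. Among the acetyltransferases, Crebbp had 10.26, 9.81, 10.57 and 10.55 in the ICC lines and 9.48, 9.74, 10.19 and 10.28 in the HCC lines. Here the lines ICC2.7 and ICC2.9 stood above all others and HCC1 and HCC4 were lowest, with a difference between types of 0.38 (SE 0.22, adjusted p = 0.491 by limma). Its close relative Ep300 had equal means within 0.01. Of 31 acetylation companions none passed, with Ing2 (difference 0.36) and Ing4 (difference -0.20), subunits of histone-modifying complexes, holding the smallest p (limma adjusted p of 0.272 and 0.290).

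The SWI/SNF subunits did not separate the types. Of 8, 5 had the higher mean in ICC, with differences from -0.10 (Arid2) to 0.21 (Smarca4, an ATPase of the complex), and none reached an unadjusted p of 0.05. The alternative ATPase Smarca2 differed by 0.11, the core subunits Smarcb1 and Smarcc1 by -0.04 and -0.09, and the DNA-binding subunits Arid1a and Arid1b by 0.12 and 0.07. Pbrm1, the bromodomain subunit of the PBAF form, had 10.11, 9.90, 10.19 and 10.29 in the ICC lines and 9.89, 9.54, 10.10 and 10.20 in the HCC lines, with HCC4 lowest and the types overlapping. Among 38 companions from this and other remodelling complexes none passed. Ep400, an ATPase of the TIP60 complex, and Dpf3, a SWI/SNF subunit, had the smallest p, with differences of -0.39 and -0.33 and limma adjusted p of 0.163 and 0.316.

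The histone methylation enzymes lay close in the types, with differences between -0.17 (Kdm6b) and 0.12 (Kmt2a) in 7 genes. Kmt2a, a methyltransferase of active promoters, had 8.49, 8.20, 8.45 and 8.50 in the ICC lines and 7.75, 8.30, 8.49 and 8.64 in the HCC lines, where HCC1 alone was far down. The enhancer methyltransferases Kmt2c and Kmt2d differed by -0.08 and -0.07, Setd2, which marks transcribed gene bodies, by 0.01, and the demethylases Kdm1a and Kdm4c by -0.05 and -0.13. A second, dimmer probe set of Kdm6b had the opposite sign (difference 0.18), with log2 signals of 5.11 to 5.25 in ICC and 4.87 to 5.29 in HCC lines. Among 38 companions, Smyd2 (difference 0.26) and Kmt5c (difference -0.28), both lysine methyltransferases, had the smallest p, with a limma adjusted p of 0.298 for each.

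Bap1, a deubiquitinase that removes a Polycomb mark, ranged from 8.41 in ICC10 to 8.84 in HCC2.4 and differed by -0.11. Asxl1, its cofactor, ranged from 8.23 to 8.64, with HCC4 highest, and differed by -0.17. Of their 8 companions none passed, with Asxl2 (difference -0.20) and Ogt (difference 0.30) holding the smallest p (limma adjusted p of 0.383 and 0.441). Over all the companion lists, 160 of 173 listed genes were measured and 19 (11.9%) had an unadjusted p under 0.05, which is below the 14.1% of all genes.

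The second comparison was between lines labelled female and male, with tumour type in the model. Tet2, which oxidises methylcytosine, was the 1 member that passed limma's test, where 2.94% of all genes passed. Its log2 signals were 8.16 and 8.08 in the female ICC9 and ICC10, 8.46 and 8.35 in the female HCC2.1 and HCC2.4, 7.61 and 7.84 in the male ICC2.7 and ICC2.9, and 7.87 and 7.72 in the male HCC1 and HCC4. The 4 female lines lay above the 4 male lines in both types. The means were 8.26 ± 0.17 (SD, n = 4) and 7.76 ± 0.12 (SD, n = 4), a 1.42-fold difference (log2 0.50, SE 0.09, adjusted p = 0.0325 by limma). Tet2 no longer passed with the missing direction in the model (limma adjusted p = 0.0989), with lines of 1 type and sex label as a random block (0.068), or without any 1 of ICC9, ICC10, ICC2.7, HCC1, HCC2.1 and HCC2.4 (0.0573 to 0.156), although the difference stayed between 0.45 and 0.57.

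Tet1 and Kmt2c also separated the sex labels without passing. Tet1, a relative of Tet2, had 5.48 and 5.35 in the female ICC lines, 5.40 and 5.24 in the female HCC lines, 5.94 and 6.13 in the male ICC lines and 5.62 and 5.53 in the male HCC lines. The female lines were all lower, by a mean log2 of 0.44 (female minus male -0.44, SE 0.11, adjusted p = 0.0755 by limma), opposite to Tet2. Kmt2c had 7.40, 7.29, 7.45 and 7.72 in the female ICC9, ICC10, HCC2.1 and HCC2.4, and 7.05, 7.15, 6.99 and 7.04 in the male ICC2.7, ICC2.9, HCC1 and HCC4 (female minus male 0.41, SE 0.10, adjusted p = 0.0876 by limma). Eed was the fourth member without overlap, with the female lines lower (-0.21, adjusted p = 0.181 by limma). These 4 are 9.09% of the members, against 8.76% of all genes, and 5 members (11.4%) had an unadjusted p under 0.05, against 17.5% of all genes.

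Histone demethylases encoded on the X and Y chromosomes check the labels. Kdm5d and Uty lie on the Y chromosome, and Kdm5c and Kdm6a are their X-linked counterparts, which escape X inactivation. Uty had log2 signals of 3.42, 3.51, 3.43 and 3.28 in the female ICC9, ICC10, HCC2.1 and HCC2.4, and 7.98, 8.18, 8.29 and 8.01 in the male ICC2.7, ICC2.9, HCC1 and HCC4. Kdm5d had 3.71, 3.54, 4.13 and 3.70 against 7.86, 8.24, 8.06 and 7.59. The Y-linked genes matched the sex label in all 8 lines. Kdm6a was higher in the female lines, with 9.82, 9.71, 10.17 and 10.15 against 9.36, 9.33, 9.46 and 9.33 (log2 difference 0.59, adjusted p = 0.0191 by limma). Kdm5c had 9.29, 9.23, 9.37 and 9.36 against 9.03, 8.90, 8.89 and 8.89 (log2 difference 0.39, adjusted p = 0.0434 by limma). Both X-linked genes were higher in every female line. The only other companion past the threshold was the PBAF subunit Phf10, lower in the female lines (log2 difference -0.74, adjusted p = 0.0434 by limma).

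**Figure D4:**
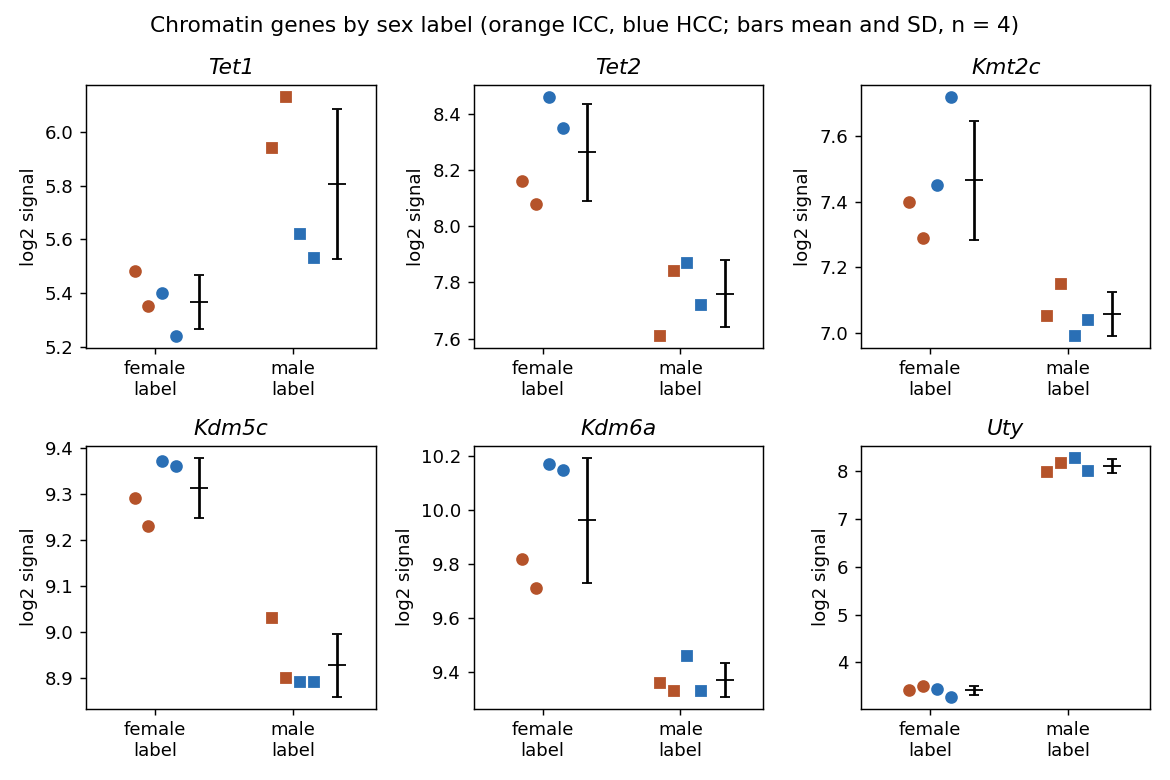
Log2 signal of 6 chromatin genes by sex label; orange points are ICC and blue points HCC lines, and bars are the mean and SD of 4 lines. Tet2, Kmt2c, Kdm5c and Kdm6a are higher and Tet1 and Uty lower in every line labelled female, and only Tet2, Kdm5c, Kdm6a and Uty passed the adjusted threshold.

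The third comparison asked whether the difference between ICC and HCC differs between the sex labels. The same sum of signals also compares lines by the form of their names: ICC9, ICC10, HCC1 and HCC4 are named without a point, and ICC2.7, ICC2.9, HCC2.1 and HCC2.4 with one. The labels do not say what the point marks, and the interaction and the name form cannot be told apart. No gene passed limma's test for the interaction at an adjusted p of 0.05 (0.0% of all genes). With the missing direction in the model 255 genes passed, none of them a member, and without ICC9 238 passed, with Crebbp as the 1 member. Without ICC10, 10 genes and no member passed. The error in this test is the spread within pairs of lines of 1 type and sex label. If the lines of a pair share an animal, that error and the p-values are too small. A random block for the pairs cannot be estimated here, because the pairs are the very groups that this model fits. Its consensus correlation was 0.40 in the type comparison, where sex label was not in the model, and 0.17 in the sex label comparison. At an unadjusted p under 0.05 there were 17 members (38.6%), against 20.1% of all genes. All 17 were negative, that is, lower on average in the lines named without a point, against 10.8% of all genes that were negative at that p. Among genes above the median level, 17 of 42 members (40.5%) were negative at that p, against 17.0%. Over the members the median interaction was -0.26 and 36 of 44 were negative (81.8%), against 55.5% of genes above the median level and 48.1% of all genes.

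The 17 members were Arid1a, Arid1b, Arid2, Pbrm1, Smarca4 and Smarcc1 of the SWI/SNF complex, Kmt2a, Kmt2d, Setd2 and Kdm1a of histone methylation, Crebbp, Ep300 and Sirt1 of histone acetylation, Ezh2 and Cbx2 of Polycomb, and Tet3 and Bap1. Arid1a had log2 signals of 9.18 and 8.84 in ICC9 and ICC10 and 8.82 and 8.82 in HCC1 and HCC4, against 9.40, 9.38, 9.37 and 9.31 in ICC2.7, ICC2.9, HCC2.1 and HCC2.4. The lines named with a point were all higher, by 1.37-fold on average (interaction -0.90, SE 0.18, adjusted p = 0.113 by limma). Ep300 had 9.37, 9.10, 9.03 and 9.05 in the lines named without a point and 9.38, 9.45, 9.57 and 9.63 in the others, and ICC9 came within 0.01 of ICC2.7. Crebbp, with the values given above, had the largest interaction (-1.15, SE 0.23, adjusted p = 0.113 by limma).

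Kmt2d had 8.02, 7.72, 7.80 and 7.88 in ICC9, ICC10, HCC1 and HCC4, and 8.12, 8.23, 8.28 and 8.39 in ICC2.7, ICC2.9, HCC2.1 and HCC2.4. Kdm1a had 9.82, 9.62, 9.79 and 9.65 against 9.95, 9.97, 10.01 and 10.11, and Smarcc1 10.34, 10.09, 10.34 and 10.30 against 10.58, 10.58, 10.59 and 10.70. In 9 members, Arid1a, Arid2, Smarcc1, Kmt2d, Setd2, Kdm1a, Ep300, Bap1 and Tet3, every line named with a point was above every other line (20.5%, against 3.13% of all genes). In 25 members (56.8%) the lines named with a point had the higher mean in both types, against 22.8%. For these counts no share among genes above the median level was worked out. Ezh1, Cbx7 and Smarca2 were among the 8 members with the opposite sign, by mean log2 differences of 0.23, 0.17 and 0.23. Of 160 companions, 63 (39.4%) had an unadjusted p under 0.05, 57 of them negative and 6 positive. The 57 were 35.6%, against 10.8% of all genes and 17.0% of genes above the median level, where most companions lie.

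**Figure D5:**
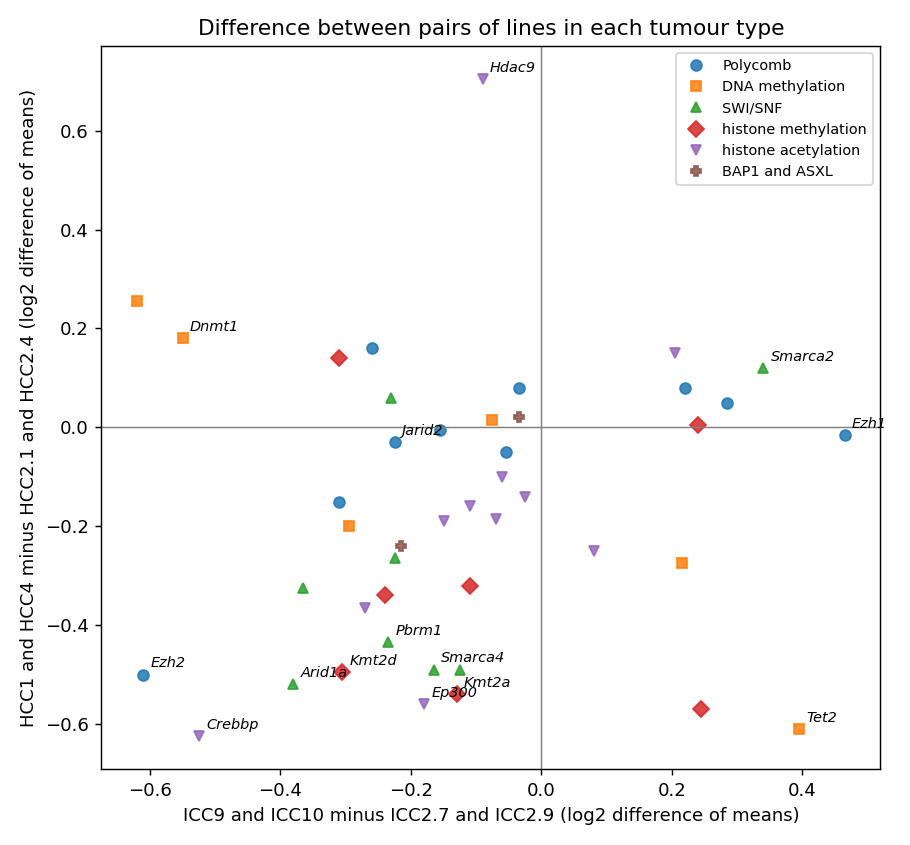
For each of the 44 chromatin genes, the log2 difference of means between the lines named without and with a point in ICC (horizontal axis) and in HCC (vertical axis), with symbols by role. Of the 44, 25 lie in the lower left, lower in the lines named without a point in both types, among them Arid1a, Crebbp, Ep300 and Kmt2d.

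Seen by type, this appears as opposite orders of the sex labels. In ICC, 25 members (56.8%) were lower in both female lines than in both male lines, against 29.0% of all genes. In HCC, 22 of the 44 members were higher in both female lines, against 23.9%. Accordingly the median ICC minus HCC difference over the members was -0.16 among the lines labelled female, with 34 of 44 negative, and 0.11 among those labelled male, with 29 of 44 positive. Between lines named with a point 3 members passed the limma test between types, Dnmt1, Tet1 and Tet2, where 8.85% of all genes passed, and between those named without a point 0, where 0.167% passed. These splits by name form were made after the values had been seen, and each group then holds a single pair of lines of 1 sex label. Among lines named with a point the ICC lines are male and the HCC lines female, so type and sex label cannot be told apart there, and Tet1 and Tet2 are the genes that also separated the sex labels over all lines.

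Single lines carried part of this pattern. ICC10 was the lowest ICC line for 33 members (75.0%), against 29.9% of all genes, and the lowest of all 8 lines for 14 (31.8%, against 11.7%). HCC4 was lowest for 11 members (25.0%, against 15.7% of all genes) and HCC1 for 10 (22.7%, against 12.6%). HCC2.1 was lowest for no member, against 12.9% of all genes, and ICC9 for none, against 2.01%. HCC2.4 was highest for 11 (25.0%, against 12.9%) and ICC2.9 for 9. Without ICC10 the interaction had 7 members at an unadjusted p under 0.05, without HCC2.4 it had 10 and without HCC1 22, against 17 with all lines. For all genes the counts were then 1746, 3459 and 5638, against 4467 with all lines. The counts of members and of all genes thus fell or rose together, and these fits do not show an effect particular to the members.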

How the data were processed

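RNA from 8 lines was labelled with the WT PLUS kit (100 ng total RNA) and hybridised to 1 Affymetrix array each. The authors deposited log2 values with 2 decimals, made by RMA in oligo per the submitters' processing notes. The tool versions and the annotation release were not given in the sources used here. RMA scales all arrays to one distribution, so a shift shared by all genes could not be seen. Scanner files were not used here, and signal over background was not assessed. Of 39993 probe sets, 23521 named 1 gene, 1814 several and 14658 none in the platform table, and the brightest probe set on average was kept for each of 22180 genes. Symbols of the 44 measured members matched RefSeq.

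Differences were tested in limma 3.58.1 (R 4.3.3; lmFit, eBayes, two-sided, Benjamini-Hochberg over 22180 genes, threshold 0.05) for type, for sex label with type in the model, and for their interaction. The code was tested on simulated data. Members with an adjusted p under 0.05 in any comparison, an unadjusted p under 0.05 for type, or 1 of the 12 widest ranges are given line by line. In each companion list the genes called for type, or otherwise the 2 with the smallest p, are named, and all 4 X- and Y-linked demethylases. Others, such as Phf10, Arid1a and Ep300 in the sex and name-form results, were picked with their values in view. The members and lists were chosen with earlier results of these data known. Alternatives were other eBayes settings, a filter on dim genes, quantile normalization, median centring, averaged probe sets, covariates, blocks, subsets of lines and leaving out each line. Those using the form of the line names were added after seeing the data. Number of arrays limits the precision. Motifs were searched in RefSeq promoter windows (GRCm38.p6).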

Additional observations from a re-analysis of the deposited data

Results flagged for a closer look

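In 5 of 88 groups of 4 lines (each member in each tumour type), 1 line stood apart from the other 3 by more than Dixon's 95% critical value (5.68%). For 4 separate values chance alone gives about 1 in 20. Because the columns of values are not fully separate measurements, that rate does not strictly hold for the groups of either type. Ezh2 was 8.27 in HCC4, against 9.21 to 9.30 in the other HCC lines. Hdac1 was 10.50 in HCC4, against 10.79 to 10.84. Kmt2a was 8.20 in ICC10, against 8.45 to 8.50 in the other ICC lines. Setd2 was 8.99 in ICC10, against 9.16 to 9.19, and Hdac3 was 10.50 in ICC10, against 10.55 to 10.56. All 5 were low values, 2 of them in HCC4 and 3 in ICC10.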

How the results depend on the processing

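No paired analysis was possible because the labels give no replicate numbers, and numbers in sample order pair nothing. No called result changed sign under any alternative run. The count of members called between ICC and HCC was 0 with all lines. It was 1 (Dnmt1) among female-labelled lines, where the ICC lines are named without a point and the HCC lines with one. It was 3 (Dnmt1, Tet1, Tet2) among lines named with a point, where the ICC lines are male and the HCC lines female. Under every other alternative it was 0. The median difference over the members was -0.16 among female-labelled and 0.11 among male-labelled lines. The sex label count was 1 with all lines, 0 with the missing direction in the model, 0 with the random block, 3 (Kmt2c, Tet1, Tet2) with the name form in the model, and 0 to 2 leaving out 1 line each (2, Dnmt1 and Tet2, without HCC4). The interaction count was 0, and 0 to 1 leaving out 1 line each (Crebbp without ICC9). Over all genes the interaction count was 0, 255 with the missing direction in the model, 238 without ICC9 and 10 without ICC10. The count of all genes called between types was 58, and ran from 0 with lines of 1 type and sex label averaged (1170 at an unadjusted p under 0.05) to 1962 among lines named with a point. It was 6 with the random block, 12 with the missing direction and 428 with the sex label in the model. The causes were not tested. Only 4 lines per type, a table of 7 directions and an unknown sharing of animals limit these results, and subsets of 4 lines leave 2 per group.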

Other observations

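Heterochromatin, lamin, high-mobility-group and histone chaperone genes, a list of 11 outside the members, all had the higher mean in ICC. Of the 11, 4 had an unadjusted p under 0.05, where 14.1% of all genes did, and none passed limma's adjusted threshold. Hmgb2, a DNA-bending protein, had log2 signals of 7.79, 7.63, 8.26 and 8.42 in ICC9, ICC10, ICC2.7 and ICC2.9, and 7.33, 6.86, 7.06 and 6.96 in HCC1, HCC4, HCC2.1 and HCC2.4. Every ICC line was above every HCC line (difference 0.97, SE 0.19, adjusted p = 0.080 by limma). Asf1b, which hands histones to newly made DNA, had 7.79, 7.71, 8.23 and 8.52 against 7.66, 6.76, 6.98 and 7.09 (difference 0.94, SE 0.23, adjusted p = 0.136 by limma). The highest HCC line was again HCC1, which also had the highest proliferation mean of the HCC lines (9.08), and the part of proliferation was not tested.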
